A study of Mus musculus with 16 samples.

Results

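Siglec1, Cd33, Siglece, Cd84, Cd200r1, Cd200r4, Sirpa, Pirb, Fcgr2b and Fcrls encode cell surface receptors of macrophages, and their RNA was followed in cells grown from the coronal suture of the mouse skull. They are 10 of 22180 genes named on the array, and all 10 were bright enough to be among the 13453 genes tested. Siglec1, Cd33 and Cd84 were chosen from their measured rise between 3 and 7 days in these samples, so their change between days is given as a description with no test. The other 7 were listed as related receptors. Each gene was read from its brightest probe set with a single symbol, and each had only 1 such probe set: 17391834 for Siglec1, 17490149 for Cd33, 17490160 for Siglece, 17219418 for Cd84, 17325861 for Cd200r1, 17325874 for Cd200r4, 17376167 for Sirpa, 17485589 for Pirb, 17229607 for Fcgr2b and 17406514 for Fcrls.

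The 16 arrays came from Twist1+/- and wild-type C57BL6 mice of 2 mixed litters, with cells kept apart by genotype and sex. The labels speak of 8 independent samples at each of 2 times. Genotype and sex alone give 4 kinds of cells, and each kind is treated here as 1 culture shared by both media and both days. Whether some dishes were separate isolates, and how many animals went into each, is not given in the labels. Twist1 encodes a transcription factor of mesenchymal cells, and loss of a copy leads to early fusion of the coronal suture. Each culture was grown in medium with the thyroid hormone thyroxine (log10 of mol per liter, -6) or in control medium (DMEM), and RNA was taken at 7 or 3 days. The 8 groups were Twist1+/- cells with thyroxine at 7 days, in control medium at 7 days, with thyroxine at 3 days and in control medium at 3 days, and wild-type cells under the same 4 conditions. Each group had 1 female and 1 male array. The cells were grown in serum-containing medium with no sort or gate named in the labels. Values are log2 expression after RMA, the authors' array normalization, and differences are on the log2 scale, where 1 is a doubling.

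Siglecs are lectins of the immunoglobulin superfamily that bind sialic acids on glycoproteins and glycolipids. Many of them, and other inhibitory receptors of macrophages, carry a tyrosine motif in the cytoplasmic tail that recruits the phosphatases encoded by Ptpn6, Ptpn11 and Inpp5d and dampens activation. Their activating relatives instead pair with adaptor proteins such as those encoded by Tyrobp and Fcer1g. The name inhibitory covers the 10 genes only in part, because Siglec1 (sialoadhesin, an adhesion and capture receptor) lacks such a motif, the mouse Cd33 protein differs from the human one in its tail, Cd200r4 encodes an activating relative of Cd200r1, and Cd84 encodes a self-binding receptor of the SLAM family.

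Sequences upstream of the start were read because most of the 10 genes moved together while Siglece and Cd200r4 moved less. The 250 bases before the start were available from RefSeq (GRCm38.p6) for 7 of the 10 genes, all but Siglec1, Cd200r1 and Sirpa. The motif searched was GAGGAA on both strands, the core bound by the myeloid factor encoded by Spi1, and it is printed in capitals (as TTCCTC where it lies on the other strand). It was found in 4 of the 7 windows, once for Cd33 and Fcrls and 3 times for Siglece and Pirb, against 23.3% of 32851 promoters in the same table. The windows of Fcrls and Cd84, with large changes between days, and of Siglece and Cd200r4, with small ones, are shown 5′ to 3′ in the direction of the gene, at chr3:87263525-87263774 (minus strand), chr1:171839447-171839696 (plus strand), chr7:43660162-43660411 (minus strand) and chr16:44820478-44820727 (plus strand).
Fcrls: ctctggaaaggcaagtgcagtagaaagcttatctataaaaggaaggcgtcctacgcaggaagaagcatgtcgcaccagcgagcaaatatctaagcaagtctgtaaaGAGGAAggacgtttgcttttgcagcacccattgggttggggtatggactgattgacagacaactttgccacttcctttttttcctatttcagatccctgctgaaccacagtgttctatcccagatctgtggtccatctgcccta
Cd84: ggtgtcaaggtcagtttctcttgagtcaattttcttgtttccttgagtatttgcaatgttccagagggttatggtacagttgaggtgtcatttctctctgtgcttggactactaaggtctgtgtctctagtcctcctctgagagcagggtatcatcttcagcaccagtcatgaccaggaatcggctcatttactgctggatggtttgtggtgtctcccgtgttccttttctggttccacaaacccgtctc
Siglece: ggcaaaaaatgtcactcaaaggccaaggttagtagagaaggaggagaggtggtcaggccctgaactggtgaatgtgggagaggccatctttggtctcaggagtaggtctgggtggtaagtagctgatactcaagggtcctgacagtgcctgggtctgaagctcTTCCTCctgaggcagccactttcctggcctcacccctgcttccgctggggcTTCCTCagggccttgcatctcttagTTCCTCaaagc
Cd200r4: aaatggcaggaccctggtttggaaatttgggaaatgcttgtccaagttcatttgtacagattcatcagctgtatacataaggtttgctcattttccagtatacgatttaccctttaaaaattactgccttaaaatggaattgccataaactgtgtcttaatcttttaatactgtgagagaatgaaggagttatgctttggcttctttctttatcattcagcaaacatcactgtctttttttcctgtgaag
Siglece had the motif 87, 36 and 11 bases before the start and Fcrls had it 144 bases before it, while Cd84 and Cd200r4 had no match. In these windows the motif was present and absent both among genes with large changes and among genes with small ones. A match is not a measured binding site, and its part in the changes was not tested.

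The arrays of the wild-type male culture stood apart from the other 3 cultures, so its values are given separately throughout. The mean of 19 macrophage markers ranged there from 8.80 to 9.17 at 7 days and from 8.78 to 8.82 at 3 days. In the other cultures it ranged from 8.79 to 9.02 at 7 days and from 7.28 to 7.96 at 3 days. The mean of 11 suture mesenchymal markers lay between 9.14 and 9.36 in the wild-type male culture and between 10.03 and 10.44 in the others, so the cells were a mixture in which both kinds of marker were bright. Lists of B cell, T or NK cell, neutrophil and mast cell markers had array means between 2.34 and 3.54, below the level of 3.905 required for testing, and 1 of their genes was tested. The 2 Twist1+/- control arrays at 7 days were low for a few genes outside the receptors, such as Rps18, with a mean of 6.16 against 8.56 ± 0.33 (SD, n = 14) on the other arrays. Since each combination of genotype and sex is taken as a single culture, the p-values below do not measure how animals vary, and the number of arrays limits the precision. In such bulk samples, fewer cells of a type and less RNA per cell cannot be told apart.

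**Figure D1:**
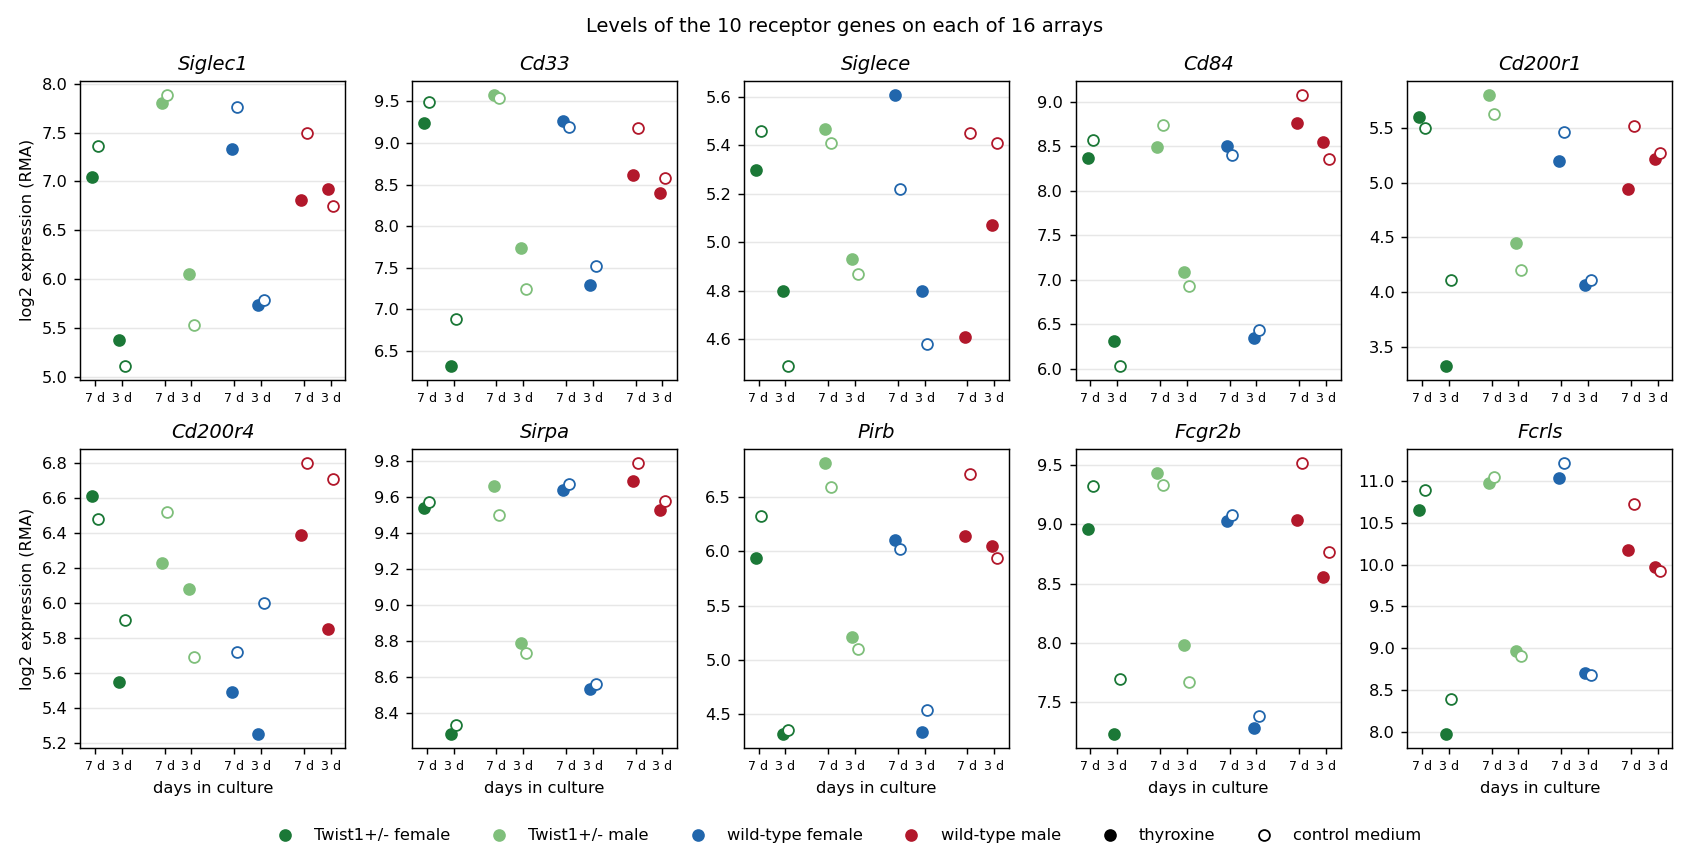
Log2 expression of the 10 receptor genes on each of the 16 arrays, 1 panel a gene, with its own vertical axis, and 1 point an array. Colours are cultures, filled points are thyroxine and open points control medium. In the Twist1+/- female, Twist1+/- male and wild-type female cultures the 7-day points lie above the 3-day points for 9 of 10 genes. Siglec1, Cd33 and Cd84 are among them and were chosen for their rise. In the wild-type male culture the days lie closer together.

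The first comparison was between days. The receptors were higher after 7 than after 3 days: of the 7 genes not chosen for their rise, 6 rose (limma, adjusted p from 0.000328 to 0.0467) and Siglece missed the threshold. Over all genes, 9.84% were called higher at 7 days in this comparison. The median change of these 7 receptors was 1.11, against -0.02 over all genes tested. In the 3 cultures other than wild-type male, every 7-day array lay above every 3-day array for 9 of the 10 genes, the exception being Cd200r4. This count is a description, because Siglec1, Cd33 and Cd84 were chosen for their rise. The share of all genes separated in this way was not counted, and the macrophage marker mean was separated as well.

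Among the Siglecs, Siglec1 ranged over the 6 arrays of the other cultures from 7.05 to 7.89 at 7 days (median 7.56), against 5.11 to 6.05 at 3 days (median 5.63). In the wild-type male culture it stood at 6.81 with thyroxine and 7.50 in control medium at 7 days, against 6.92 and 6.75 at 3 days. The days were thus apart in 3 cultures and overlapped in the wild-type male one, where thyroxine arrays were 0.11 lower at 7 days. Over all 8 pairs of days the difference averaged 1.53 ± 0.83 (SD, n = 8), and in the other cultures 1.93 ± 0.32 (SD, n = 6).

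Cd33, the Siglec whose human counterpart is a myeloid marker and a genetic risk locus of Alzheimer's disease, ranged from 9.19 to 9.58 at 7 days in the other cultures (median 9.38) and from 6.32 to 7.74 at 3 days (median 7.27). The wild-type male arrays had 8.61 with thyroxine and 9.18 in control medium at 7 days, against 8.40 and 8.58 at 3 days. Every 7-day array of the 16 was above every 3-day array. The mean difference between days was 1.76 ± 0.94 (SD, n = 8), and it ran from 0.21 in the wild-type male thyroxine arrays to 2.92 in the Twist1+/- female ones.

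Siglece, an inhibitory Siglec of neutrophils and macrophages that recruits tyrosine phosphatases, changed less. It ranged from 5.22 to 5.61 at 7 days in the other cultures (median 5.44) and from 4.49 to 4.93 at 3 days (median 4.80). In the wild-type male culture it had 4.61 with thyroxine and 5.45 in control medium at 7 days, against 5.07 and 5.41 at 3 days, so 7-day values there included the lowest. The fitted difference of 0.45 ± 0.15 (SE, n = 8 pairs) did not pass (limma, adjusted p = 0.0604). It passed with culture as a fixed block (adjusted p = 0.0486), without the wild-type male thyroxine array at 7 days (0.62, adjusted p = 0.00116), without the wild-type male control array at 3 days (0.56, adjusted p = 0.0208) and without the whole wild-type male culture (0.68, adjusted p = 0.000388).

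Cd84, the SLAM-family receptor, ranged from 8.37 to 8.74 at 7 days in the other cultures (median 8.50) and from 6.03 to 7.09 at 3 days (median 6.39). In wild-type male cells it stood at 8.76 with thyroxine and 9.08 in control medium at 7 days, and at 8.55 and 8.36 at 3 days. The 3-day wild-type male values were thus within the range of the 7-day arrays of the other cultures or just below it. The mean difference between days was 1.61 ± 0.79 (SD, n = 8).

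Fcrls, a mouse receptor related to Fc receptors that is known from microglia and tissue macrophages, had the largest mean change of the 10 genes over all cultures. It ranged from 10.66 to 11.22 at 7 days in the other cultures (median 11.01) and from 7.97 to 8.97 at 3 days (median 8.69), a mean change of 2.37 ± 0.26 (SD, n = 6), or 5.17-fold. In the wild-type male culture it had 10.18 with thyroxine and 10.73 in control medium at 7 days, against 9.97 and 9.92 at 3 days, and even there the 7-day arrays were higher. Fcrls rose by 1.91 ± 0.21 over all cultures (SE, n = 8 pairs; limma, adjusted p = 0.000341), in 8 of 8 pairs.

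Fcgr2b, the inhibitory Fc receptor for IgG, ranged from 8.96 to 9.43 at 7 days in the other cultures (median 9.20), against 7.23 to 7.98 at 3 days (median 7.53). In wild-type male cells it had 9.04 with thyroxine and 9.52 in control medium at 7 days, and 8.56 and 8.77 at 3 days. It rose by 1.39 ± 0.15 (SE, n = 8 pairs; limma, adjusted p = 0.000328), and all 7-day arrays were above all 3-day arrays. In the other cultures its change lay between 1.45 and 1.75, with the smallest SD of the 10 genes (0.11, n = 6).

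Pirb, an inhibitory receptor for MHC class I, ranged from 5.94 to 6.82 at 7 days in the other cultures (median 6.22) and from 4.31 to 5.21 at 3 days (median 4.44). In wild-type male cells it had 6.14 with thyroxine and 6.72 in control medium at 7 days, against 6.05 and 5.94 at 3 days, so that culture overlapped the 7-day range already at 3 days. Pirb rose by 1.36 ± 0.16 (SE, n = 8 pairs; limma, adjusted p = 0.000341). It has near relatives among the Pira genes, and RNA of these could add to its signal, which was not tested.

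Sirpa, whose protein receives the restraining signal of Cd47 on other cells, spread little at 7 days (SD 0.09, n = 8). At 3 days it spread more (SD 0.50, n = 8). It ranged from 9.50 to 9.67 at 7 days in the other cultures (median 9.605) and from 8.28 to 8.79 at 3 days (median 8.545). In wild-type male cells it had 9.69 with thyroxine and 9.79 in control medium at 7 days, and 9.53 and 9.58 at 3 days, so there the days differed by 0.16 and 0.21 only. Sirpa rose by 0.84 ± 0.12 (SE, n = 8 pairs; limma, adjusted p = 0.000629).

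The Cd200 receptors differed from each other. Cd200r1, the inhibitory receptor for Cd200, ranged from 5.20 to 5.80 at 7 days in the other cultures (median 5.55) and from 3.33 to 4.45 at 3 days (median 4.11), and it rose by 1.11 ± 0.17 over all cultures (SE, n = 8 pairs; limma, adjusted p = 0.000921). In wild-type male cells it had 4.94 with thyroxine and 5.51 in control medium at 7 days, against 5.21 and 5.27 at 3 days, and the days overlapped. Cd200r4, the activating relative that signals through the Tyrobp adaptor, ranged from 5.49 to 6.61 at 7 days in the other cultures (median 6.36) and from 5.25 to 6.08 at 3 days (median 5.80). Its wild-type male values were 6.39 with thyroxine and 6.80 in control medium at 7 days, and 5.85 and 6.71 at 3 days. The days overlapped in the other cultures as well, since wild-type female control cells had 5.72 at 7 days and 6.00 at 3 days. Cd200r4 passed at 0.40 ± 0.13 (SE, n = 8 pairs; limma, adjusted p = 0.0467). That call was lost in most fits that left out a single array, where the difference was as low as 0.31, and without the wild-type male culture (0.32).

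**Figure D2:**
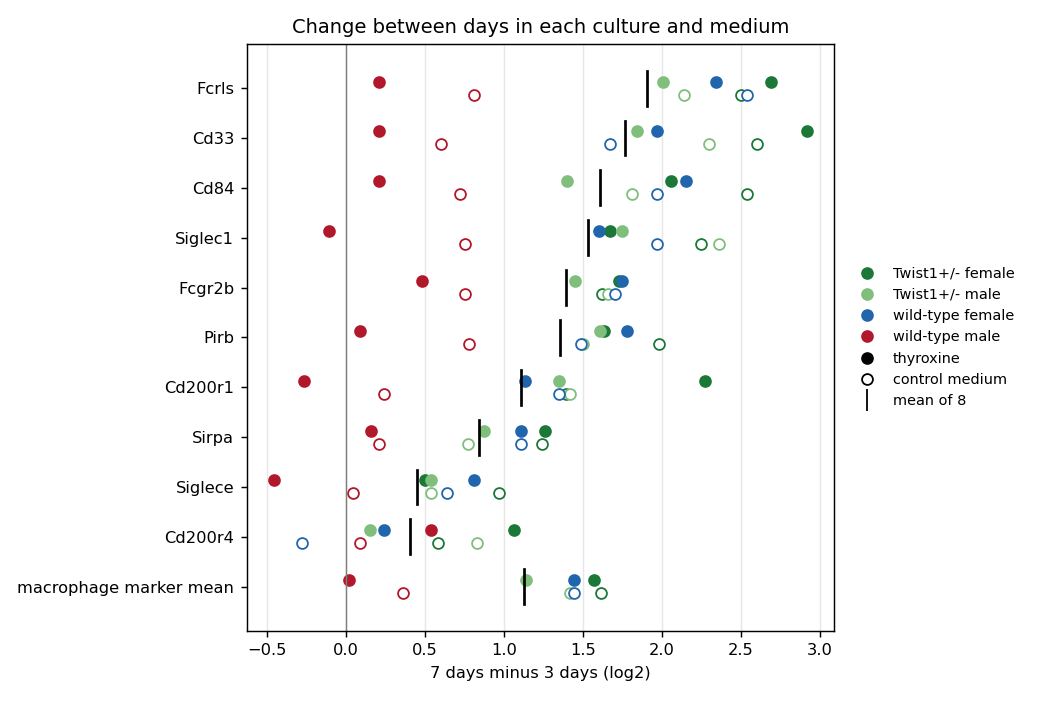
Change between days (7 minus 3 days, log2, horizontal axis) of each receptor gene and of the macrophage marker mean in each culture and medium, with 8 points a gene and a bar at their mean. The wild-type male points lie lowest for 9 of the 10 genes, and Cd200r4 is the exception.

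The same comparison was made within each genotype. In Twist1+/- cells 6 of the 7 genes rose, where 9.24% of all genes were called higher: Fcrls by 2.34 ± 0.30, Pirb by 1.68 ± 0.22, Fcgr2b by 1.62 ± 0.21, Cd200r1 by 1.61 ± 0.24, Sirpa by 1.04 ± 0.17 and Cd200r4 by 0.66 ± 0.18 (SE, n = 4 pairs; limma, adjusted p from 0.000878 to 0.0299). The Cd200r4 call was lost in 5 fits that left out a single array (adjusted p from 0.0706 to 0.156), without the filter on dim genes and without the block. Siglece differed by 0.64 ± 0.22 (adjusted p = 0.0675). In wild-type cells, whose arrays are split between the female culture and the male one that stands apart, 0 of the 7 passed, where 0.052% of all genes did. The fitted wild-type differences were 1.48 ± 0.30 for Fcrls, 1.17 ± 0.21 for Fcgr2b, 1.04 ± 0.22 for Pirb and 0.65 ± 0.17 for Sirpa (limma, adjusted p from 0.0632 to 0.0955), and 2212 genes had an unadjusted p under 0.05. Those 4 genes passed with culture as a fixed block, where 513 genes on the array were called against 15. Leaving out the wild-type male culture left 1 array in each wild-type group. The wild-type differences were then 2.44 for Fcrls, 1.725 for Fcgr2b, 1.635 for Pirb and 1.24 for Cd200r1. They were 1.11 for Sirpa, 0.725 for Siglece and -0.02 for Cd200r4.

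The difference between genotypes in the change between days was itself tested for the 7 genes not chosen for their rise. It was positive for 7 of 7 genes, from 0.38 ± 0.30 for Siglece to 1.00 ± 0.34 for Cd200r1 (SE), and 0 of 7 passed (limma, adjusted p from 0.559 to 0.733). As a description, it was 1.30 for Cd33, 0.96 for Siglec1 and 0.69 for Cd84. No gene on the array passed either (0% called, 1174 at an unadjusted p under 0.05). The wild-type side of this difference holds the wild-type male culture. Without that culture the difference was -0.11 for Fcrls, -0.11 for Fcgr2b, -0.11 for Cd84, -0.09 for Siglece and -0.08 for Sirpa, so the direction turned for 5 of 10 genes.

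That culture was therefore set against the other 3. The change between days was smaller in it for 5 of the 7 receptors not chosen for their rise, where 4.09% of all genes were called lower. The difference was -1.86 ± 0.16 for Fcrls, -1.50 ± 0.26 for Cd200r1, -1.23 ± 0.21 for Pirb, -1.04 ± 0.18 for Fcgr2b and -0.88 ± 0.11 for Sirpa (SE; limma, adjusted p from 9.7e-06 to 0.00249). Siglece, at -0.88 ± 0.27 (adjusted p = 0.0739), and Cd200r4, at -0.12 ± 0.27 (adjusted p = 0.874), did not pass. For Cd33, Siglec1 and Cd84, chosen from their changes between days, the differences of -1.81, -1.61 and -1.52 are a description. This fit takes its spread from the 2 media of a culture and day, not from other cultures of the same kind. The culture was known from earlier results of these data to stand apart, so these p-values are not independent support. The macrophage marker mean changed by 0.19 in it and by 1.44 in the others, and its part was not tested by this fit.

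The levels at each day were compared next. At 3 days 5 of the 7 receptors not chosen for their rise were higher in the wild-type male culture than in the others, where 10.3% of all genes were called higher. Pirb was higher by 1.36 ± 0.15, Fcrls by 1.34 ± 0.11, Cd200r1 by 1.20 ± 0.18, Fcgr2b by 1.13 ± 0.13 and Sirpa by 1.02 ± 0.08 (SE; limma, adjusted p from 8.02e-08 to 0.00015). Cd200r4 (0.54 ± 0.19, adjusted p = 0.0512) and Siglece (0.50 ± 0.19, adjusted p = 0.0801) did not pass. At 7 days, where 16.7% of all genes were called in either direction, 1 of these 7 passed, and Fcrls was lower (-0.52 ± 0.11, adjusted p = 0.00378). Cd84, Cd33 and Siglec1 were chosen from their values at these days, so their differences are a description. They were 1.93, 1.32 and 1.24 at 3 days and 0.41, -0.49 and -0.38 at 7 days. Over both days together every receptor not chosen for its rise was called higher but Siglece (0.06 ± 0.14), where 13.6% of all genes were. As a description, the differences were 1.17 for Cd84, 0.42 for Cd33 and 0.43 for Siglec1. Without the wild-type male control array at 7 days the calls of Cd200r1 (0.324) and Cd200r4 (0.445) were lost, and Siglec1 stood at 0.255 and Cd33 at 0.297. These tests at single days were added after the data had been seen. The macrophage marker mean differed in the same way at 3 days, as given above, and its part in the receptors' levels was not tested by these fits.

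**Figure D3:**
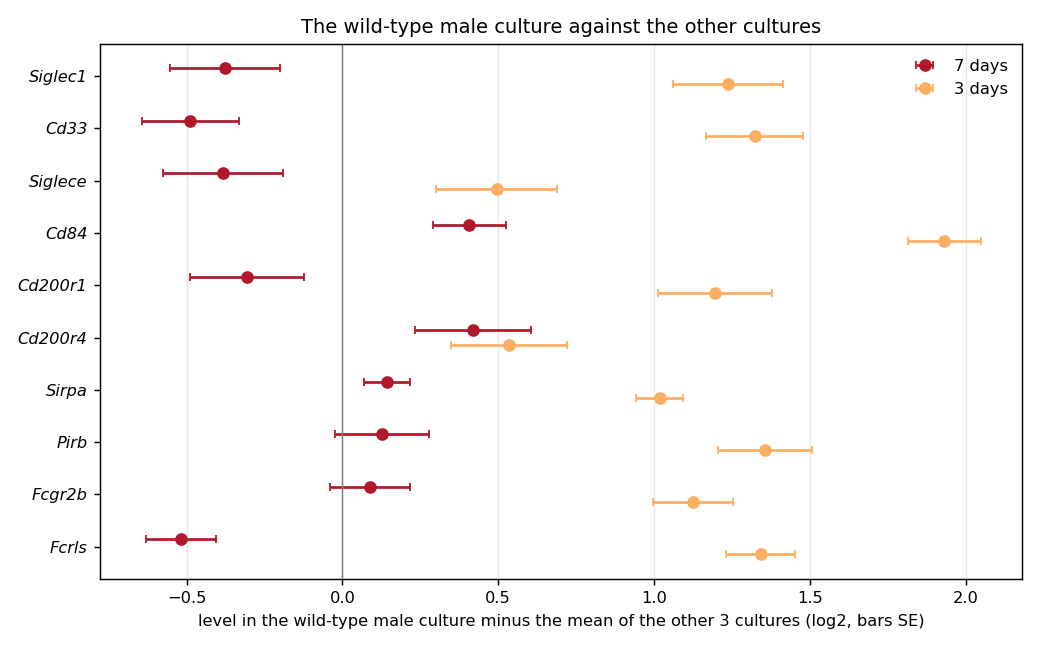
Level of each receptor gene in the wild-type male culture minus the mean of the other 3 cultures (log2, horizontal axis) at 7 and at 3 days, with bars of 1 SE from the fit. The 3-day points are all above 0, up to 1.93 for Cd84, and the 7-day points lie between -0.52 and 0.42.

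The receptors were next set against other macrophage genes. All 18 tested macrophage markers rose with time, with a median change of 1.10, and their mean changed by 1.13 ± 0.60 (SD, n = 8 pairs), 1.44 ± 0.17 in the other cultures and 0.19 ± 0.25 in the wild-type male one. After this mean was subtracted on each array, Fcrls still rose, by 0.78 ± 0.24 (SE; limma, adjusted p = 0.00106), and its change exceeded that of the markers in 8 of 8 pairs, by 0.19 to 1.12. On that scale 0.104% of all genes, 14 in number, were called higher at 7 days and 96.8% were called lower, with all genes at a median change of -0.02 before the subtraction. After adjustment 13041 genes passed there and before it 13047, so an adjusted p on this scale guards little against multiple testing. Siglece (-0.68 ± 0.24, adjusted p = 0.00508) and Cd200r4 (-0.73 ± 0.24, adjusted p = 0.00279) rose less than the markers, Siglece in 8 of 8 pairs and Cd200r4 in 7 of 8.

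The other tested receptors differed less from the markers and did not pass. The relative difference was 0.27 ± 0.24 for Fcgr2b, 0.23 ± 0.24 for Pirb, -0.02 ± 0.24 for Cd200r1 and -0.29 ± 0.24 for Sirpa (limma, adjusted p from 0.233 to 0.948). Fcgr2b and Pirb were nevertheless above the marker mean in 8 of 8 pairs, by 0.003 to 0.46 and by 0.05 to 0.47. The SE on this scale was nearly the same for each receptor, while the SD over the 8 pairs was 0.14 for Fcgr2b and 0.18 for Pirb. Failing to pass here therefore does not show that a receptor moved with the markers. Sirpa was below it in 7 of 8 pairs. For Cd33, Cd84 and Siglec1, chosen for their rise, the relative differences were 0.64, 0.48 and 0.40 as a description.

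**Figure D4:**
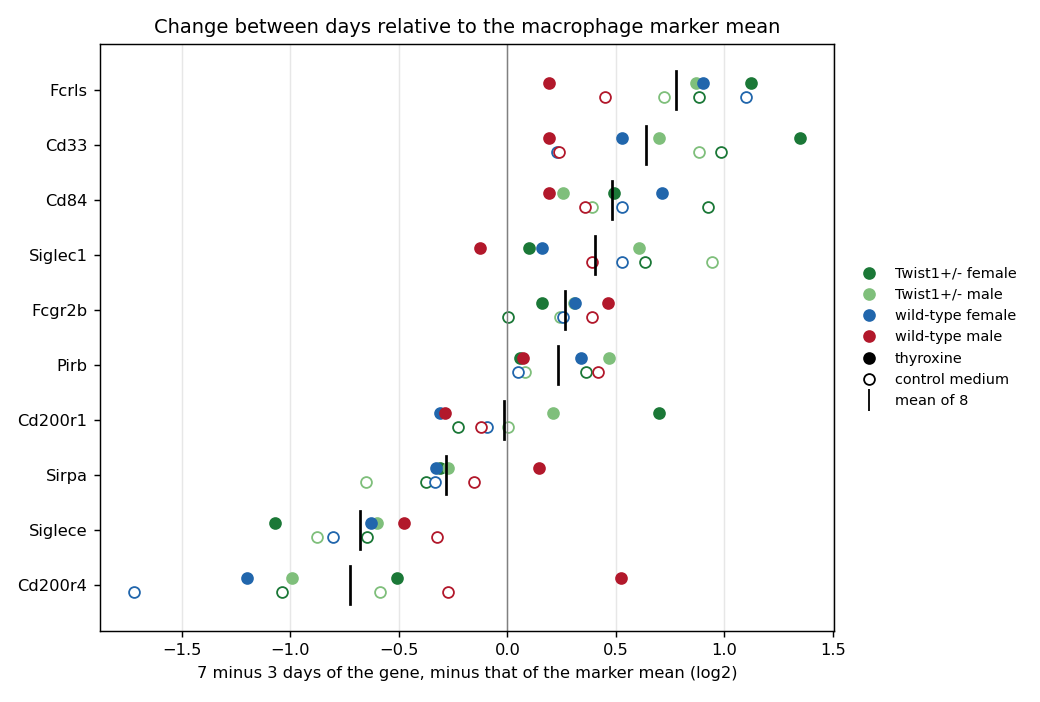
Change between days of each receptor gene minus that of the macrophage marker mean (log2, horizontal axis) in each culture and medium, with a bar at the mean of 8. Fcrls, Cd33, Cd84, Fcgr2b and Pirb lie above 0 in all 8 pairs and Siglece lies below 0 in all 8.

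On the same relative scale the wild-type male culture differed less from the others in its change between days, except for Cd200r4. Its smaller change between days passed for Fcrls (-0.61 ± 0.20, adjusted p = 0.00437, limma). Cd200r4 kept nearer to the markers there, with a mean relative change of 0.13 against -1.01 in the other cultures (difference 1.13 ± 0.26, adjusted p = 8.37e-05). Before the subtraction that difference was -0.12. On this scale 96.6% of all genes were called in either direction, so the adjustment removed few calls. The relative difference of -0.56 for Cd33 is a description. The level in this culture was lower for Siglece (-0.61 ± 0.14, limma, adjusted p = 7.96e-05) and Fcrls (-0.26 ± 0.10, adjusted p = 0.016). There 94.5% of all genes were called, so these calls say little. Before the subtraction the difference in level was 0.06 for Siglece and 0.41 for Fcrls. For Cd84 and Cd33, chosen for their rise, the relative differences in level of 0.50 and -0.25 are a description.

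Across the 16 arrays 8 receptors followed the macrophage marker mean closely, with Pearson r from 0.956 for Cd200r1 to 0.990 for Sirpa, whereas Siglece had 0.803 and Cd200r4 0.578. Among the 28 pairs of those 8 receptors r lay between 0.916 and 0.986, and among the 17 pairs with Siglece or Cd200r4 between 0.401 and 0.823. These are descriptions, because the 16 points share 4 cultures and the difference between days. Vsir, an inhibitory receptor of the B7 family, was among the 3 genes closest to Siglec1 (r = 0.983), Cd33 (r = 0.990) and Fcrls (r = 0.984). Pirb was closest to Ptprc, the leukocyte marker CD45 (r = 0.983), and to Sirpb1a, an activating relative of Sirpa (r = 0.983), followed by Casp1 (r = 0.982).

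The closest genes to the other receptors were Prkcb (r = 0.995), the scavenger receptor Msr1 (0.993) and the NADPH oxidase subunit Cybb (0.992) for Cd84, Prex1 (0.995), the oxidase subunit Ncf1 (0.994) and Pik3ap1 (0.993) for Sirpa, and the chemokine Ccl4 (0.985), Ptafr (0.983) and Mpeg1 (0.980) for Fcgr2b. Siglec1 was also close to Aoah (0.988) and Dab2 (0.983), Cd33 to AB124611 (0.992) and Ms4a7 (0.990), and Fcrls to Nxpe5 (0.984) and Lcp2 (0.983). For Cd200r1 they were Dok3 (0.974), I830077J02Rik (0.973) and Rassf4 (0.972). The closest genes were less close for Siglece, with Stk17b (0.891), S1pr1 (0.890) and Sfxn5 (0.886), and for Cd200r4, with Hal (0.874), Gdpd1 (0.869) and Atg7 (0.861).

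The wider family was measured as well, with 9.84% of all genes called higher and 8.69% called lower at 7 days. Of the related or paired receptors, 10 of 10 tested genes rose with time (median 1.14), among them the IgG receptor genes Fcgr1 (1.43 ± 0.17) and Fcgr3 (0.97 ± 0.13), Sirpb1a (1.14 ± 0.14) and Cd48 (1.16 ± 0.13), a ligand in the SLAM family (SE, n = 8 pairs; limma, adjusted p from 0.000341 to 0.000463). Another 8 measured genes of that list were too dim to test. Of other inhibitory myeloid receptors 8 of 11 rose (median 0.93), including Lair1, a collagen receptor (1.19 ± 0.17), Vsir (1.10 ± 0.12), Milr1 (1.08 ± 0.16) and Ceacam1 (1.04 ± 0.13), and 0 fell. Of the other Siglecs 0 of 3 tested genes passed: Cd22, the B cell Siglec, differed by 0.21 ± 0.10, Siglecg by -0.35 ± 0.15 and Siglec15, known from osteoclasts, by -0.02 ± 0.11 (limma, adjusted p from 0.129 to 0.928).

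Among the signalling proteins 16 of 23 genes rose and 1 fell (median 0.77), beside 9.84% higher and 8.69% lower over all genes. Tyrobp, the adaptor of activating receptors, rose by 1.49 ± 0.23, Fcer1g, the adaptor of Fc receptors, by 1.16 ± 0.18, Inpp5d, the lipid phosphatase SHIP1, by 1.25 ± 0.16, Vav1 by 1.13 ± 0.13 and Skap2, a partner of Sirpa, by 0.77 ± 0.10 (SE, n = 8 pairs; limma, adjusted p from 0.000359 to 0.00107). Between the tyrosine phosphatases recruited by inhibitory tails, Ptpn6 (SHP-1, mainly in blood cells) rose by 0.98 ± 0.13 (adjusted p = 0.000453), and Ptpn11 (SHP-2, in most cells) differed by -0.18 ± 0.06 without passing (adjusted p = 0.0697). Rasa1, which encodes a Ras GTPase-activating protein, fell by 0.31.

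Of 4 tested ligand genes 3 rose and 1 fell. Cd47, the ligand of Sirpa, rose by 0.37 ± 0.11 (SE, n = 8 pairs; limma, adjusted p = 0.0308), Spn, a sialylated ligand of Siglec1, by 0.39 ± 0.10 (adjusted p = 0.02) and Selplg, a sialylated leukocyte mucin, by 1.30 ± 0.16 (adjusted p = 0.000394). Thbs1, a secreted ligand of Cd47, fell by 0.43 ± 0.08 (adjusted p = 0.00229). Cd200, the ligand of Cd200r1, was too dim to test. In the sialic acid pathway 6 of 18 genes rose and 2 fell (median -0.05), beside 9.84% and 8.69% over all genes, with St6gal1 (1.00 ± 0.10) and St8sia4 (1.04 ± 0.14), which add sialic acid to glycans, Slc17a5 (0.54 ± 0.06), the lysosomal sialic acid exporter, and Neu1 (0.47 ± 0.08), the lysosomal sialidase, among the risers (adjusted p from 0.000298 to 0.00128). By comparison 0 of 11 suture mesenchymal genes rose and 1 fell, and 1 of 5 tested osteoclast genes rose.

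The level in Twist1+/- cells was also set against that in wild-type cells over both media and days. Of the 10 receptors 0 passed, with fitted differences from -0.49 ± 0.29 for Cd84 to 0.11 ± 0.18 for Cd200r4 (SE; limma, adjusted p from 0.937 to 0.998). No gene on the array passed (0% called, 619 at an unadjusted p under 0.05), and the test rests on 2 cultures against 2. Without the wild-type male culture Siglec1 was lower in Twist1+/- cells by 0.43 ± 0.10 (difference -0.43, adjusted p = 0.0386), the only receptor of 10 that passed there, and 310 genes on the array did. That fit sets both Twist1+/- cultures against a single wild-type culture, so culture and genotype cannot be told apart in it.

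Thyroxine was compared with control medium within 8 pairs of the same culture and day. Of the 10 receptors 0 passed, where 0.0966% of all genes did. The mean differences were all below 0 but small, from -0.30 ± 0.09 for Cd200r4 to -0.01 ± 0.05 for Sirpa (SE, n = 8 pairs; limma, adjusted p from 0.611 to 0.988), and 825 genes had an unadjusted p under 0.05. The pairs disagreed in sign for each of the 10 genes. All 10 receptors were higher with thyroxine in the Twist1+/- male pair at 3 days (median 0.21), and all 10 were lower with it in the wild-type male pair at 7 days (median -0.56). The macrophage marker mean moved the same way there, by 0.32 and by -0.39, and its part was not tested.

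**Figure D5:**
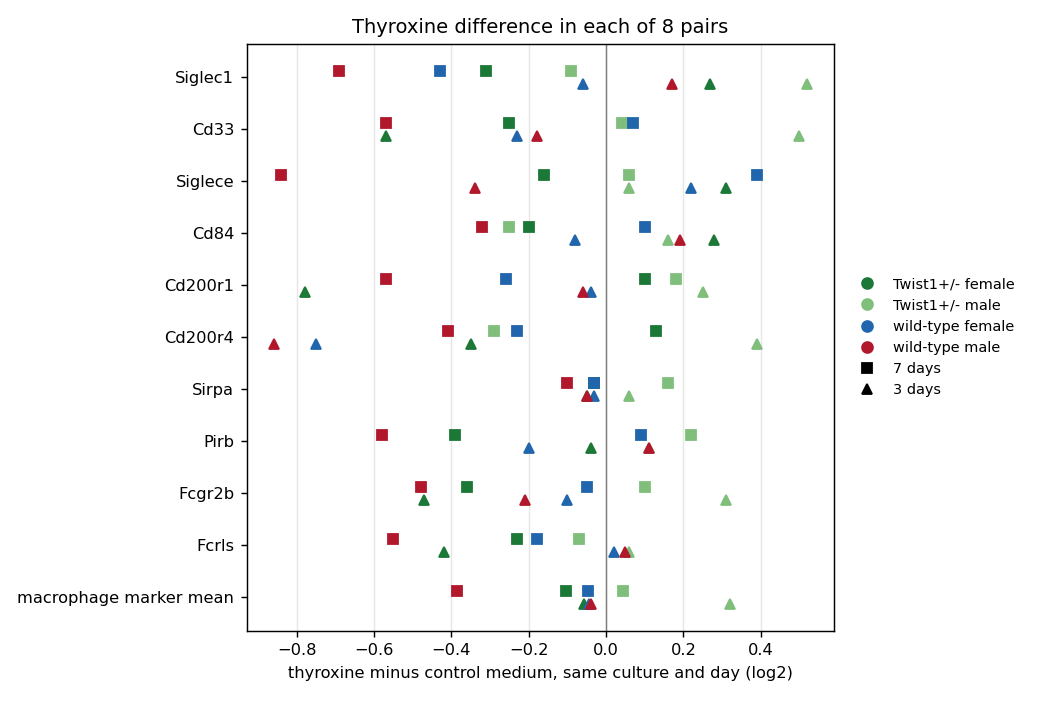
Thyroxine minus control medium (log2, horizontal axis) for each receptor gene and the macrophage marker mean in each of the 8 pairs of culture and day. Points fall on both sides of 0 for every gene, and the wild-type male pair at 7 days is below 0 for all 10 receptors.

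Cd200r4 and Siglec1 were known from earlier results to have large thyroxine differences in a subset of pairs, so their values are descriptions. In wild-type cells Cd200r4 was lower with thyroxine in 4 of 4 pairs, with differences of -0.23 at 7 days and -0.75 at 3 days in female cells and of -0.41 and -0.86 in male cells. In Twist1+/- cells it was lower in 2 of 4 pairs, between -0.35 and 0.39. The difference between genotypes in the thyroxine effect passed for 0 of 10 receptors, where 0.0595% of all genes passed (1282 at an unadjusted p under 0.05). It was 0.53 for Cd200r4, and 0.72 when the Twist1+/- female pair at 3 days was left out. Siglec1 was lower with thyroxine in 4 of 4 pairs at 7 days, from -0.69 to -0.09, and higher in 3 of 4 at 3 days, from -0.06 to 0.52. The difference between days in the thyroxine effect was -0.60 for Siglec1 and passed for 0 of 10 receptors, where 0.00743% of all genes passed (724 at an unadjusted p under 0.05).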

How the data were processed

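RNA was measured on 16 whole-transcript Affymetrix arrays, from 100 ng of total RNA each per the labels' protocols. The deposited values are log2 expression per probe set, which the authors computed by RMA (Affymetrix Expression Console), as the submitters' processing notes state. The sources used here give neither the software version nor the genome build, and do not say if the 3 wells per condition were combined. RMA sets all arrays to a common distribution, so a shift of all genes could not be seen, and it compresses differences near background. No counts exist, so depth does not apply.

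Of 41345 probe sets 23521 had a single symbol in the platform annotation, 1814 had several and 16010 had none. The brightest single-symbol probe set of each of 22180 genes was used, and 13453 of them passed a floor on the mean of 3.905, set at percentile 40. Tests were two-sided in limma 3.58.1 (R 4.3.3), by lmFit and trended eBayes, and Benjamini-Hochberg adjustment ran over all genes tested at 0.05.

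Days and genotypes were compared in a fit of 8 group means and sex, with culture as a random block (statmod 1.5.0, within-culture correlation 0.202). Thyroxine was fitted with the pair of culture and day as a fixed block and an effect for each genotype and day. The wild-type male culture was compared in a fit of culture and day means plus medium. That pairing is the labels': wells of both media shared a plate of 1 culture. Across genes, the male minus female difference of the thyroxine arrays correlated with that of the control arrays, for Twist1+/- with 0.393 (7 days) and 0.119 (3 days), for wild type with 0.721 (7 days) and 0.771 (3 days). The replicate number marks sex, and each combination of genotype and sex was treated as 1 culture across media and days. Whether its dishes came from the same isolate was not tested.

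The genes were named by rule: the 10 receptors, the 3 genes with the highest Pearson correlation with each, up to 4 genes per pathway list with the smallest p between days among those past the threshold, and stated ligands or signalling partners. There were 6 pathway lists and 9 marker lists. The receptors, lists and rules were chosen with earlier results of these data known. Alternatives covered the filter on dim genes, the intensity trend, probe set averaging, centring on array medians, subtraction of the macrophage marker mean, the blocks, the wild-type male culture, single arrays and single pairs. The scripts were tested on simulated data.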

Additional observations from a re-analysis of the deposited data

Results flagged for a closer look

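For 5 of the 7 receptors not chosen for their rise, the change between days (7 minus 3 days, log2) differed between the wild-type male culture and the other 3 cultures by a test of that difference in limma. Over all genes, 4.09% were called lower in the wild-type male culture by that test. The wild-type male change was smaller, by a difference of -1.86 for Fcrls, -1.50 for Cd200r1, -1.23 for Pirb, -1.04 for Fcgr2b and -0.88 for Sirpa. Cd33 at -1.81, Siglec1 at -1.61 and Cd84 at -1.52 were chosen from their changes between days, and their differences are a description. The culture is 1 of 4, its arrays stood apart in macrophage and mesenchymal markers, and which of these goes with the difference was not tested. This culture was picked for the comparison because earlier results of these data showed it to stand apart.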

How the results depend on the processing

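Counts below are of receptors past the threshold, and the change between days is counted over the 7 receptors not chosen for it, except where 10 is given. The 10 include Siglec1, Cd33 and Cd84, whose changes between days are descriptions. Where a count of 10 is given for a change between days or for the wild-type male level, their part in it is not a test result. In the main fit 5 of the 7 others passed for the smaller wild-type male change, where 4.09% of all genes were called lower. Subtracting the macrophage marker mean from each array left 3 of 7 called between days and 3 of 7 in Twist1+/- cells, and for the wild-type male culture against the others 3 of 10 in the change between days and 4 of 10 in level. Those counts include calls that turned direction, and by construction nearly all genes of the array were called on that scale. It turned the day difference of Siglece to -0.68, Cd200r1 to -0.016, Cd200r4 to -0.73 and Sirpa to -0.29, and in Twist1+/- cells that of Siglece to -0.80, Cd200r4 to -0.78 and Sirpa to -0.40. It turned the wild-type male difference in the change between days for Cd200r4 to 1.13, Sirpa to 0.37, Pirb to 0.019 and Fcgr2b to 0.21, and that in level for Siglec1 to -0.24, Cd33 to -0.25, Siglece to -0.61, Cd200r1 to -0.22, Cd200r4 to -0.19, Sirpa to -0.087, Fcgr2b to -0.061 and Fcrls to -0.26.

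With culture as a fixed replicate block, 7 of 7 passed between days against 6, and 4 of 7 against 0 in wild-type cells, where 513 genes on the array were called against 15. The pair block for thyroxine left 0 receptors called with or without it, while the genes on the array called for thyroxine went to 0 without it, against 13. For the genotype difference a fixed culture block was not run, because it takes up the genotype. Without the wild-type male culture 6 of 7 were called between days in wild-type cells against 0, where 1623 genes on the array were called against 15, and 1 receptor was called for genotype against 0.

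Leaving out 1 array at a time gave 5 to 6 of 7 between days, 5 to 7 in Twist1+/- cells, 0 to 5 in wild-type cells (5 without the wild-type male thyroxine array at 7 days), 0 for the genotype difference in that change and 0 for genotype. It gave 8 to 9 of 10 for the wild-type male change between days and 5 to 9 of 10 for its level, with 5 left without its control array at 7 days, where Siglec1, Cd33, Cd200r1 and Cd200r4 were lost. Leaving out 1 pair at a time gave 0 for thyroxine, 0 to 1 for its difference between genotypes (the 1 being Cd200r4, known beforehand for this difference) and 0 for its difference between days. Of 2050 results for single receptors under alternatives, 90 had the other sign: the 19 above, where a called value or call was involved, and 71 that passed on neither side. Of those 71, the macrophage subtraction gave 9, among them Siglece (-0.56), Cd200r1 (-0.20), Cd200r4 (-0.67) and Sirpa (-0.17) between days in wild-type cells and Siglece (0.37) in the wild-type male change.

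Counts over all genes moved by over 1.5 times in more cases. For thyroxine, 0 genes against 13 were called without the intensity trend, without the pair block or without the Twist1+/- pairs at 7 days, and 1 without the wild-type male culture. For its difference between genotypes, 0 against 8 were called in each of these 4 cases and 5 with probe set means, and for its difference between days 0 to 2 against 1. Between days in wild-type cells 8 against 15 were called without the filter on dim genes or without any block. In Twist1+/- cells 3017 against 1969 were called without the wild-type male culture, and for genotype 310 against 0. Single-array fits called 941 to 2181 genes between days in Twist1+/- cells, 4 to 531 in wild-type cells against 15, and 352 to 996 for the wild-type male change between days against 820. Single-pair fits called 0 to 29 for thyroxine, 0 to 202 for its difference between genotypes and 0 to 17 for its difference between days. The cause of these changes was not tested. Precision is limited by the 4 cultures. The lowest values of Cd200r1 (3.33), Pirb (4.31) and Siglece (4.49) lie near the floor of 3.905 for testing.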
